A study of Mus musculus with 74 samples.

Results

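The Hox cluster genes are 39 of the 24015 gene symbols in a table of RNA-seq read counts from mouse gut epithelium: every symbol made of Hox, the letter of a cluster and a number. Cluster A gave 11 members, cluster B 10, cluster C 9 and cluster D 9. The series holds 74 samples, of which 31 are the RNA libraries used here, in 15 groups that follow the epithelium of forestomach, hindstomach and small intestine through development and after removal of Cdx2, the homeobox regulator of intestinal identity.

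Hox genes encode homeodomain transcription factors that give cells their position along the head-to-tail axis. They lie in 4 clusters, and a gene's number, from 1 to 13, is its paralog group: low numbers lie at the 3′ end of a cluster, are switched on early and reach far anterior, whereas high numbers lie at the 5′ end and are used in the tail, the hindgut and the limbs. In the gut both the mesenchyme and the epithelium use them, Pbx and Meis proteins bind DNA beside them, and Cdx factors are known regulators of several of them. Below, anterior members are paralogs 1 to 3 (8 genes), central members 4 to 8 (15 genes) and posterior members 9 to 13 (16 genes).

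Wild-type embryos were of strain CD1. At E12, E14 and E16, Epcam+ cells were sorted from trypsin-digested forestomach, hindstomach and small intestine (labelled midgut at E12 and E14), with 2 libraries for each organ and stage. E18 wild-type small intestine (2 libraries) was not sorted: its villi were released with EDTA and dissociated with TrypLE. The knockout embryos were of a B6;129 mixed background and carried a Cre, so strain, Cre and Cdx2 genotype cannot be told apart in these comparisons. In the first knockout, Cdx2f/f; Shh-Cre, the Cre is driven by a gene of the early endodermal epithelium, deletion is labelled E10 and small intestine was taken at E16 (3 libraries). The second, Cdx2f/f; Villin-Cre, uses a promoter of the intestinal epithelium and a tamoxifen-inducible Cre, and the mice were gavaged with 5 mg of tamoxifen. Its deletion is labelled E13 with collection at E16 (2 libraries), or E15 with collection at E18 (2 libraries). No tamoxifen is listed for the wild-type embryos, so tamoxifen differs as well in the comparisons of this knockout with them. Adult ileal villi, freed with EDTA from B6;129 mice, came from Cdx2f/f; Villin-Cre animals injected with 1 mg of tamoxifen on 5 consecutive days and from Cdx2f/f animals injected with sunflower oil (2 libraries each), so Cre and tamoxifen differ together between the adult groups. Nothing in the labels says which replicates are separate animals, so p-values measure the spread between these libraries, which may be technical.

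Library totals ran from 5970227 to 62463167 counts (median 21910062), with both E16 forestomach libraries at the bottom. Levels are given as CPM, read counts made comparable in depth by TMM scaling over all 31 libraries. A member was called detected in a group when every library had more than 3 counts and at least 1 CPM. Changes were tested with edgeR's quasi-likelihood test, and "passed" or "called" means a Benjamini-Hochberg adjusted p under 0.05 over all genes tested together with a change of at least 2-fold. The filter on low counts kept 35 of the 39 members in the fit of the 27 embryonic libraries (17239 genes) and 7 in the fit of the 4 adult libraries (12444 genes). A member can pass this filter through the one group in which it is high, so the shares over tested members below are descriptions. The 35 comprise 8 anterior, 15 central and 12 posterior members. Of the posterior members, 9 were detected only in the libraries labelled E12 hindstomach. In comparisons without those libraries these members still count as tested, which can lower the members' share. Several members share transcribed bases with a neighbour in the RefSeq gene table (Hoxd3 with Hoxd4, Hoxd10 with Hoxd11, Hoxb3 with Hoxb4, Hoxa3 with Hoxa4, Hoxa5 and Hoxa6, and Hoxa11 with its antisense RNA Hoxa11os). The strand setting of the counting is not given in the sources used here, so reads of these pairs may be divided between them in an unknown way.

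Several labels went against the data, and the wording below keeps to the label in each case. The libraries labelled E12 hindstomach held Gata4, a regulator of stomach and anterior gut epithelium, at 0.351 and 0.539 CPM, against 321 to 339 in E14 and 234 to 235 in E16 hindstomach. Cdx2 stood at 110 and 152 CPM in them, against 5.89 and 12 at E14, and Pdx1, made in distal stomach and duodenum, at 0.438 and 0. The libraries labelled E12 forestomach also held Pdx1, at 26.2 and 23.4 CPM against 1.58 and 3.51 at E14 and 0 at E16, beside Sox2, a regulator of stomach and oesophageal epithelium, at 177 and 152. Their 7 pancreas markers summed to 319 to 354 CPM, against 34.8 to 46.5 in E16 forestomach. This level was not particular to them: the sum was 320 to 325 in E12 small intestine, 695 to 724 in E14 hindstomach and 665 to 721 in E16 hindstomach. In the libraries labelled E12 hindstomach it was 4.03 to 4.49. The part of such cells in the E12 forestomach results was not tested. Results that rest on the libraries labelled E12 hindstomach are given with E14 hindstomach in their place where a comparison allows it. Among the knockouts, whole-gene Cdx2 counts were below wild type in the E10 deletion alone (16.7, 13.9 and 26.7 CPM against 184 and 205 in E16 wild-type small intestine). They were 198 and 202 CPM in the libraries labelled deleted at E13, 359 and 344 in those labelled deleted at E15 (185 and 192 in E18 wild type), and 730 and 696 in those labelled adult knockout (338 and 343 in adult wild type). The labels do not say which part of Cdx2 is removed, and reads from the remaining exons would still be counted, so a whole-gene count is no check of these deletions.

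Of the 39 members, 33 were detected in at least 1 group and 6 in none. The wild-type forestomach, hindstomach and small intestine of E14 and E16 held anterior and central members and no posterior one. E14 hindstomach had 6 members (4 anterior, 2 central), E16 small intestine 7 (3 and 4), E14 forestomach 10 (4 and 6), E14 small intestine 10 (5 and 5), E16 hindstomach 11 (5 and 6) and E16 forestomach 17 (5 and 12). At E12, forestomach had 10 (5 and 5) and small intestine 9 (4 and 5), while the libraries labelled E12 hindstomach had 28 (7 anterior, 9 central and 12 posterior). Summed over all 39 members, the level was 313 and 339 CPM in E16 forestomach, 125 and 140 in E16 hindstomach and 36.9 and 38.8 in E16 small intestine. In E18 wild-type small intestine it was 1.98 and 2.81 CPM, with no member detected. These are bulk libraries, in which fewer cells of a type and less RNA per cell cannot be told apart.

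**Figure D1:**
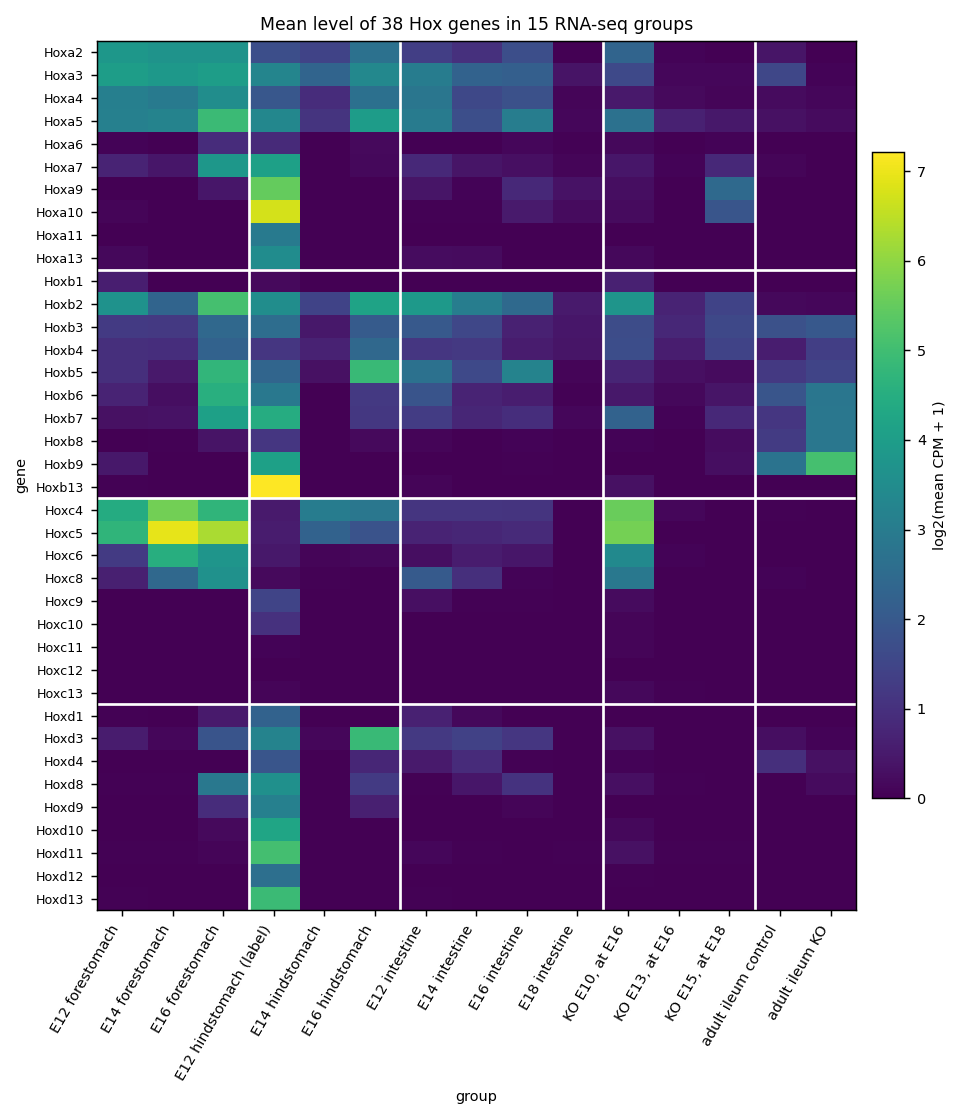
Mean level of 38 Hox members (rows, by cluster and paralog number) in each of the 15 groups (columns), as a colour on a log scale of CPM. The posterior rows are filled mainly in the libraries labelled E12 hindstomach, with Hoxb9 also in the adult groups and Hoxa9 and Hoxa10 in the E15 deletion label, the HoxC rows 4 to 8 in forestomach and in the E10 Cdx2 deletion, and E18 small intestine is nearly empty.

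The libraries labelled E12 hindstomach held 12 of the 16 posterior members at a detected level. Of these, Hoxb9 was also detected in both adult groups and was highest in the adult knockout label, and Hoxa9 and Hoxa10 were also detected in the libraries labelled deleted at E15. Of the 12 members of paralog groups 10 to 13, 8 were detected there and 1 (Hoxa10) in any other group. Hoxb13, a posterior gene of hindgut, prostate and tail, was at 143 and 151 CPM (4885 and 5304 counts), and no other library exceeded 0.561 CPM. Hoxa10 was at 98.9 and 114 CPM and Hoxa9 at 49.6 and 39.7. The Hoxd genes of the same end followed, with Hoxd11 at 30.3 and 34.5 CPM, Hoxd13 at 28.1 and 30.7, and Hoxd10 at 16.2 and 19.3. Hoxa13, which with Hoxd13 is needed for the formation of the anorectal region, was at 9.41 and 11.4 CPM but passed against neither other organ of E12 (edgeR adjusted p = 0.0591 for forestomach and 0.0546 for small intestine). Hoxa11 had 5.82 and 7.89 CPM and 0 counts in each of the other 29 libraries. In none of these genes did the 2 libraries overlap those of any other group.

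Of the 3 tested non-coding RNAs of the clusters, Hoxa11os and Hottip were lower in both E12 forestomach and E12 small intestine than in these libraries. Mira was lower in E12 forestomach, did not pass against E12 small intestine (edgeR adjusted p = 0.0778), and was higher in E16 forestomach, at a mean of 2.64 CPM, than in E16 hindstomach and small intestine, at 0.0630 and 0.128. Hoxa11os, the antisense RNA of Hoxa11, was at 29.5 and 39.5 CPM and Hottip, transcribed beyond Hoxa13, at 6.49 and 4.09, and Hottip had 0 counts in all other libraries. Evx1, the homeobox gene beyond the 5′ end of cluster A, stood at 10.9 and 17.1 CPM, against at most 1.51 in all other libraries, and did not pass against E12 forestomach or small intestine (adjusted p = 0.0704 and 0.0875). Cluster C did not share this pattern in level: its 9 members summed to 1.85 and 6.93 CPM, with Hoxc9 at 2.57 and 1.05 and Hoxc13 at 0 and 0.142.

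**Figure D2:**
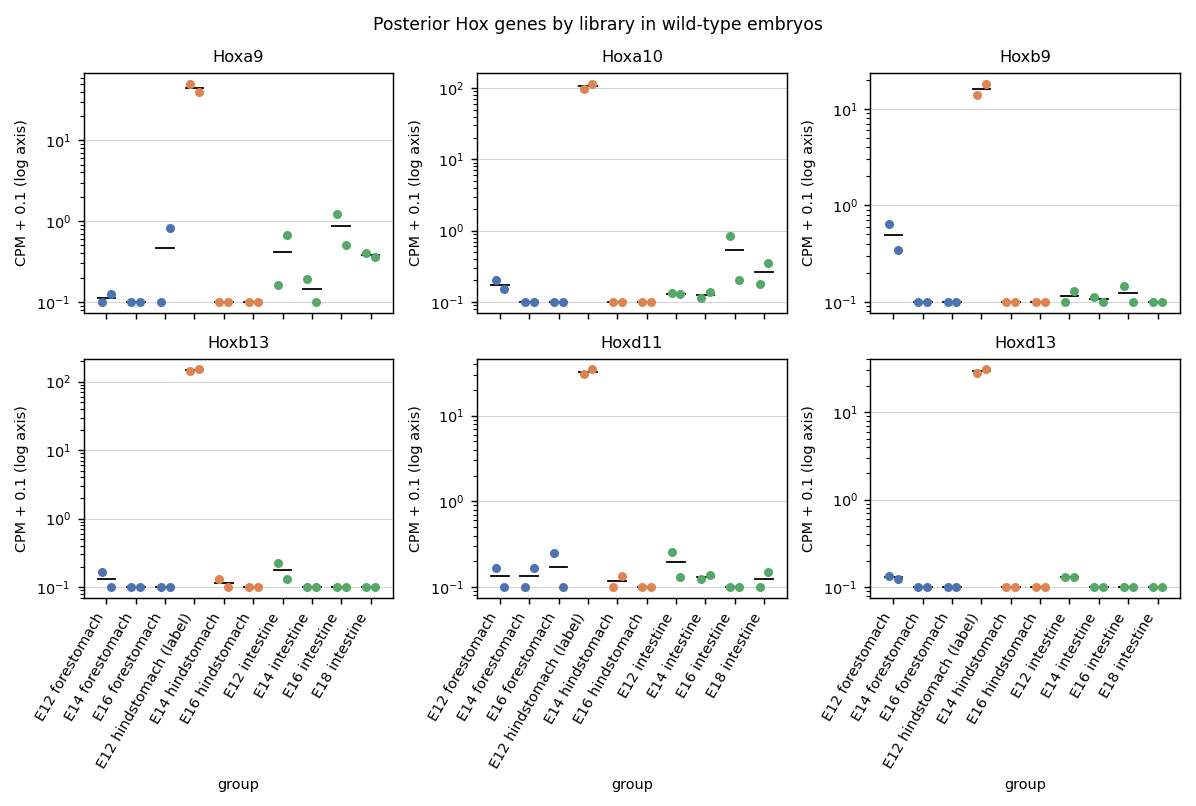
Level of 6 posterior Hox members in each wild-type embryonic library (points; bars are group means), as CPM + 0.1 on a log axis, by group. The pair of libraries labelled E12 hindstomach stands above every other library drawn, for each gene.

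Forestomach differed from the libraries labelled E12 hindstomach in 19 of the 35 tested members, 3 higher and 16 lower in forestomach, while 7.11% of all genes tested passed. The median log2 difference of the members was −4.61, beside 0.00 over all genes. Of the 16 lower members 10 were posterior and 5 central. Hoxb13 was lower by a factor of 5162 in the ratio of counts (95% counting interval 1429 to 42629; edgeR's quasi-likelihood test, adjusted p = 9.67e-06). Hoxa9 was lower by a factor of 3136 (562 to 123903; adjusted p = 0.000142), and Hoxd10, at 0 counts in forestomach, by at least 203-fold with a floor of 3 counts per library (adjusted p = 0.00549). Hoxc4 and Hoxc5 were among the 3 members higher in forestomach. Hoxc4 stood at 22.6 and 19.0 CPM against 0.526 and 0.369 (log2 5.52, SE 0.47, adjusted p = 4.18e-07). Hoxc5 stood at 23.6 and 26.9 CPM against 0.906 and 0 (log2 5.79, SE 0.94, adjusted p = 0.000618). Without forestomach replicate 2 the count of called members was 11 instead of 19.

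Small intestine at E12 was also compared with the libraries labelled E12 hindstomach, in which 14 members were higher and 3 lower, beside 9.28% of all genes tested, with a members' median of 2.96 against 0.00. The 14 comprised 10 posterior and 4 central members. Hoxa10 was higher by a factor of 3432 (counting interval 950 to 28344; edgeR adjusted p = 2.01e-06), Hoxb13 by a log2 difference of 10.79 (SE 0.88, adjusted p = 1.46e-05) and Hoxd10 by at least 190-fold (adjusted p = 0.00540). Hoxc8, a thoracic-level gene, was at 0.234 and 0.0284 CPM against 2.33 and 3.87 in small intestine (log2 −4.52, SE 0.97, adjusted p = 0.00605). Hoxc4, also lower, was detected in neither group. A fit on the 4 libraries alone called 7 members and DESeq2 called 11.

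Forestomach and small intestine at E12 were closer in their Hox levels. Between these organs 6 members passed (4 higher and 2 lower in forestomach) while 10.1% of all genes tested did, and the members' median was −0.11 against 0.00. Hoxc4, at 22.6 and 19.0 CPM against 0.670 and 1.69, was higher by log2 4.12 (SE 0.43, edgeR adjusted p = 4.32e-06), and Hoxc5, at 23.6 and 26.9 against 0 and 1.27, by 5.28 (SE 0.91, adjusted p = 0.000921). Hoxb5, a central gene of foregut and lung mesenchyme, was lower, at 1.04 and 0.862 CPM against 7.18 and 3.78 (log2 −2.53, SE 0.44, adjusted p = 0.000636). The remaining calls (Hoxb1, Hoxb9 and Hoxd4) concerned members under 1 CPM in both groups. The count was 3 without forestomach replicate 1 and 10 without small intestine replicate 2, and a fit on the 4 libraries alone called 0 members, with 5 at an unadjusted p under 0.05 by edgeR and 6 called by DESeq2 on all libraries.

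By E14 cluster C divided forestomach from both other organs. Forestomach was higher in 9 members than hindstomach and lower in 0, beside 8.46% of all genes tested, with a members' median of 0.66 against −0.03. Hoxc6 was at 20.8 and 22.8 CPM against 0.0334 and 0.107 (ratio of counts 317, edgeR adjusted p = 0.000596), and Hoxc8 at 5.04 and 3.69 against 0 and 0.0713 (ratio 125, adjusted p = 0.000757). Hoxc5 reached its highest level of the series, at 122 and 123 CPM, against 3.61 and 4.03 in hindstomach (log2 4.99, SE 0.84, adjusted p = 0.000643). For each of these 3 genes the libraries of the organs were far apart and did not overlap. Hoxa3, Hoxa4 and Hoxa5, neighbours in cluster A, were also higher, by log2 1.75 to 2.94, with the calls of Hoxa3 and Hoxa4 kept in 0 of the 4 fits that left out a library and that of Hoxa5 in all 4. The count of called members was 5 without forestomach replicate 1, without hindstomach replicate 1 or without hindstomach replicate 2.

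Against E14 small intestine, forestomach was higher in 7 members and lower in 2, beside 11.9% of all genes tested (members' median 0.00, all genes −0.09). Hoxc5 differed by log2 7.32 (SE 0.95, edgeR adjusted p = 3.28e-05; small intestine 1.00 and 0.411 CPM). Hoxc6 differed by 5.56 (SE 1.18, adjusted p = 0.00251; 0.470 and 0.449 CPM), and Hoxc4, at 53.1 and 46.4 against 1.34 and 1.01 CPM, by 5.38 (SE 0.45, adjusted p = 1.26e-07). Hoxb5 was again lower, at 0.488 and 0.345 against 2.23 and 1.79 CPM (log2 −2.27, SE 0.47, adjusted p = 0.00159). Leaving out any 1 of 3 libraries (forestomach replicate 1, small intestine replicate 1 or small intestine replicate 2) left 4 to 5 called members. Hindstomach at E14 was lower than small intestine in 8 members and higher in 1, beside 6.83% of all genes tested, with a members' median of −2.09 against −0.01. The higher member was Hoxc4 (8.52 and 5.89 CPM, log2 2.60, SE 0.40, adjusted p = 0.000316). Cluster B carried the lower ones: Hoxb2 was at 1.84 and 1.61 against 7.74 and 6.99 CPM, Hoxb3 at 0.301 and 0.464 against 1.84 and 1.98, and Hoxb5 at 0.234 and 0.285 against 2.23 and 1.79, with log2 differences of −2.09 to −2.93. The other 5 lower members were detected in neither group, and the count fell to 3 to 5 when any 1 of the 4 libraries was left out. The 14 mesenchyme and smooth muscle markers summed to 55.2 to 59.5 CPM in E14 hindstomach and 289 to 329 in E14 small intestine, and their part in the lower levels was not tested.

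**Figure D3:**
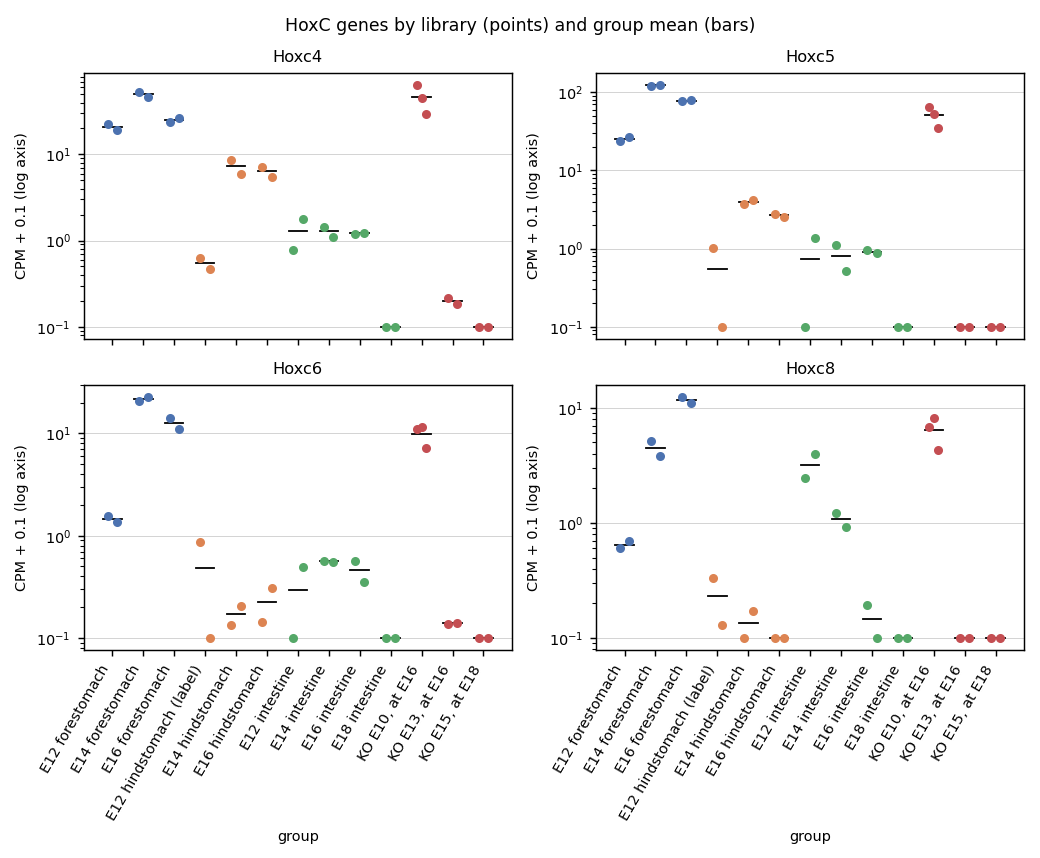
Level of Hoxc4, Hoxc5, Hoxc6 and Hoxc8 in each embryonic library (points; bars are group means), as CPM + 0.1 on a log axis, by group. Forestomach at E14 and E16 and the 3 libraries of the E10 Cdx2 deletion stand above the other groups for Hoxc4, Hoxc5 and Hoxc6 (E12 forestomach too for Hoxc4 and Hoxc5), whereas for Hoxc8 E12 small intestine, at 2.33 and 3.87 CPM, stands above E12 forestomach, at 0.504 and 0.591.

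At E16 the clusters were more widely used in the stomach than in small intestine. Forestomach was higher than small intestine in 13 of 35 tested members and lower in 1, beside 35.0% of all genes tested, with a members' median of 2.37 against 0.00. Of the 13, 10 were central and 3 anterior. The share of members called, 40.0%, was near the share of all genes. The range of summed CPM of 14 mesenchyme and smooth muscle markers was 25006 to 31194 in E16 forestomach, 7380 to 7741 in E16 hindstomach and 1530 to 1673 in E16 small intestine, with 14, 14 and 13 of the markers above 3 counts in both libraries. The 10 blood markers, 6 of them at 0 in both E16 forestomach libraries, summed to 13615 to 18333 CPM in forestomach and at most 1378 in the other organs of that stage. Hox genes are widely used in gut mesenchyme, and the part of these cells in the E16 levels was not tested.

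Hoxc8 stood at 12.4 and 10.8 CPM in E16 forestomach against 0.0944 and 0 in small intestine (ratio of counts 236, counting interval 64.2 to 1964; edgeR adjusted p = 6.00e-05). Hoxc5 was at 76.8 and 79.3 CPM against 0.850 and 0.769 (log2 6.56, SE 0.96, adjusted p = 3.19e-05). Hoxa7 was at 9.61 and 16.4 CPM against 0.236 and 0.205 (log2 5.83, SE 1.21, adjusted p = 0.000627). These 3 are central members, and none of them showed any overlap between the organs. Hoxc4, at 23.9 and 26.6 CPM against 1.09 and 1.13, differed by log2 4.49 (SE 0.45, adjusted p = 2.83e-07). The cluster B members that were also called between hindstomach and small intestine differed less. Hoxb2 was at 36.4 and 30.1 CPM against 4.81 and 4.20 (log2 2.86, SE 0.33, adjusted p = 8.89e-07). Hoxb3, at 5.62 and 3.20 against 0.425 and 0.717, differed by 2.92 (SE 0.60, adjusted p = 0.000490), and Hoxb4, at 3.40 and 4.22 against 0.519 and 0.410, by 3.00 (SE 0.57, adjusted p = 0.000245). Hoxa3, a cluster A gene of the pharyngeal region, was at 9.61 and 21 CPM against 2.93 and 4.10 (log2 2.10, SE 0.49, adjusted p = 0.00166). Hoxb5, which had been lower in forestomach at E12 and E14, was at 22.0 and 30.0 CPM against 8.54 and 8.30 (log2 1.60, SE 0.42, adjusted p = 0.00389). The single lower member, Hoxa10, was detected in neither organ.

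Hindstomach at E16 was higher than small intestine in 8 members and lower in 2, beside 25.7% of all genes tested (members' median 0.33, all genes 0.18). Of the tested members 28.6% were called, near the share of all genes. Hoxd3, an anterior cluster D gene, was at 32.8 and 24.7 CPM in hindstomach, its highest level of the series, against 1.56 and 0.820 (log2 4.58, SE 1.35, edgeR adjusted p = 0.0138). Its call was kept in 1 of the 4 fits that left out a library. Hoxb4, at 4.03 and 4.90 CPM, differed by log2 3.24 (SE 0.57, adjusted p = 0.000180), and Hoxc4, at 7.13 and 5.35, by 2.48 (SE 0.43, adjusted p = 0.000206). Hoxb2 at 18.2 and 16.3 CPM (log2 1.92, SE 0.32), Hoxb3 at 3.19 and 3.17 (log2 2.46, SE 0.58), and Hoxb5 at 29.7 and 27.7 (log2 1.76, SE 0.42) were higher too, with adjusted p from 0.000113 to 0.00278. Hoxa3 passed as well, at 9.15 and 9.54 CPM (log2 1.40, SE 0.48, adjusted p = 0.0277), but in 0 of the 4 fits that left out a library. Both lower members, Hoxa9 and Hoxa10, were detected in neither group. The summed CPM of 7 enteric nervous system markers was 661 to 662 in E16 hindstomach and at most 70.8 in every other embryonic library, and its part in these differences was not tested. The count of 10 called members was 6 without hindstomach replicate 1 or small intestine replicate 1.

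Between forestomach and hindstomach at E16, 8 members passed, 7 of them higher and 1 lower in forestomach, beside 20.1% of all genes tested (members' median 0.93, all genes −0.13). The 7 were all central, and the members' share called, 22.9%, was near that of all genes. Hoxc8 had 0 counts in hindstomach and was at least 93.0-fold higher in forestomach (edgeR adjusted p = 3.96e-05), Hoxa7 (0.126 and 0.0823 CPM in hindstomach) was higher by a ratio of counts of 126 (adjusted p = 0.000440), and Hoxc6 (14.2 and 10.9 against 0.0420 and 0.206 CPM) by log2 6.59 (SE 1.31, adjusted p = 0.000899). Hoxb6 and Hoxb7 followed, with Hoxb6 at 20.1 and 24.7 against 1.68 and 0.946 CPM and Hoxb7 at 13.4 and 18.8 against 2.06 and 0.453. Hoxb5 did not pass between these organs (log2 −0.16, SE 0.41), nor did Hoxd3 (log2 −3.45, SE 1.30, adjusted p = 0.0521). The count was 5 without hindstomach replicate 2 and 14 in a fit on the 4 libraries alone. RLE scaling shifted the median of all genes in this comparison by 0.15 on the log2 scale and kept all 8 calls in their direction, with 10 called in all.

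Changes over time are given for each organ in turn. In forestomach, 12 members rose and 3 fell from E12 to E16, beside 38.1% of all genes tested, with a members' median of 1.63 against 0.00. The 15 called were 42.9% of the tested members, near the share of all genes. Of the 12 that rose, 9 were central. Hoxd8 went from 0.0672 and 0 CPM to 9.16 and 3.49 (ratio of counts 222, edgeR adjusted p = 0.000721), Hoxb7 from 0.269 and 0.246 to 13.4 and 18.8 (log2 5.94, SE 1.00, adjusted p = 6.21e-05) and Hoxb6 from 0.538 and 0.764 to 20.1 and 24.7 (log2 5.09, SE 1.19, adjusted p = 0.00161). In each of these the stages did not overlap. Hoxb5 rose too, by log2 4.77 (SE 0.48, adjusted p = 1.60e-07). Of the 3 that fell, Hoxb1 and Hoxb9 were detected at neither stage. The mesenchyme markers rose over the same interval, from 75.0 to 89.6 CPM in sum at E12 to 25006 to 31194 at E16, and their part in these changes was not tested.

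In small intestine 2 members rose and 6 fell from E12 to E16, beside 40.0% of all genes tested (members' median −0.59, all genes 0.00), so the members' share of 22.9% was below that of all genes. Hoxc8 fell from 2.33 and 3.87 CPM to 0.0944 and 0 (ratio of counts 63.5, edgeR adjusted p = 0.000453) and Hoxb3 from 2.55 and 3.51 to 0.425 and 0.717 (log2 −2.39, SE 0.58, adjusted p = 0.00187). Neither member that rose (Hoxa10 and Hoxd8) was detected at either stage. A fit on the 4 libraries alone called 2 members. Hoxb5 did not pass in this organ, at 7.18 and 3.78 CPM at E12 and 8.54 and 8.30 at E16 (log2 0.63, SE 0.41).

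The difference in course between forestomach and small intestine was itself tested, as an organ by stage interaction. Of the tested members 9 passed (25.7%), each with a larger increase in forestomach, a share below the 30.8% of all genes tested (members' median 2.59, all genes −0.01). Hoxc8 had the largest of these, at log2 10.23 (SE 1.45, edgeR adjusted p = 5.27e-05), followed by Hoxb6 at 7.50 (SE 1.61, adjusted p = 0.00122) and Hoxb7 at 6.53 (SE 1.27, adjusted p = 0.000443). Of the 9, 6 were the neighbours Hoxb2 to Hoxb7. Among the 12 tested posterior members 0 passed. A fit on these 4 groups alone called 6.

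Between E16 and E18 small intestine, 0 members were higher at E18 and 13 lower, with a members' median of −2.61 against −0.05. The members' share called, 37.1%, was below the 42.1% of all genes tested. Of the 13, 5 were anterior (of 8 tested), 8 central (of 15) and 0 posterior (of 12), and 6 were detected at neither stage. Hoxb5 went from 8.54 and 8.30 CPM to 0.0761 and 0.0512 (ratio of counts 138, edgeR adjusted p = 2.91e-08). Hoxa2 went from 1.94 and 2.66 CPM to 0 in both libraries (at least 12-fold lower, adjusted p = 0.00238), and Hoxc4 from 1.09 and 1.13 to 0 (at least 5.79-fold, adjusted p = 3.00e-05). Hoxa5, at 7.83 and 6.87 CPM at E16, was at 0 and 0.205 at E18. No library of one stage overlapped those of the other in these genes. Sorted E16 cells and unsorted E18 villi were prepared differently, and the mesenchyme markers summed to 4.25 to 5.79 CPM at E18 with 4 of 14 at 0, so stage, preparation and these markers cannot be told apart. The count was 7 without E18 replicate 2 and 8 without E16 replicate 1.

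In hindstomach, 4 members rose and 17 fell from the libraries labelled E12 to E16, beside 33.7% of all genes tested (members' median −3.07, all genes 0.11). The 17 included 12 posterior members, and Hoxb13, Hoxa10 and Hoxa9 had 0 counts at E16, which made them at least 1177-fold, 854-fold and 358-fold lower (edgeR adjusted p from 2.67e-07 to 2.48e-05). Hoxc4 rose by log2 3.79 (SE 0.45, adjusted p = 3.15e-06), Hoxb5 by 2.81 (SE 0.44, adjusted p = 3.48e-05) and Hoxc5 by 2.51 (SE 0.93, adjusted p = 0.0340). With E14 in place of the libraries labelled E12, 12 members rose and 1 fell, beside 22.0% of all genes tested (members' median 0.80, all genes 0.05). Of the 12, 5 were detected at neither stage. Hoxd3 then rose from 0.134 and 0.0357 CPM to 32.8 and 24.7 (log2 8.31, SE 1.67, adjusted p = 0.00120), and Hoxb5 from 0.234 and 0.285 to 29.7 and 27.7 (log2 6.77, SE 0.55, adjusted p = 3.83e-08). The mesenchyme markers rose from 55.2 to 59.5 CPM in sum at E14 to 7380 to 7741 at E16, and the enteric nervous system markers from 31.1 to 31.2 to 661 to 662. Their part in these rises was not tested. The direction of the members' median depended on which stage stood for the earlier hindstomach, as did that of Hoxb7, Hoxd8 and Hoxd9, which were called lower at E16 with the libraries labelled E12 and higher with E14. Hoxb7 was at 18.7 and 23.1 CPM in the libraries labelled E12, 0.0334 and 0 at E14, and 2.06 and 0.453 at E16.

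The organ by stage interaction between hindstomach and small intestine showed the same dependence. With the libraries labelled E12 hindstomach, 4 members had a larger increase and 6 a larger decrease in hindstomach, beside 20.3% of all genes tested (members' median −2.71, all genes 0.08), and 4 members were called in a fit on these groups alone. With E14 as the earlier stage in both organs, 8 members had a larger increase and 0 a larger decrease, beside 13.1% of all genes tested (members' median 1.48, all genes 0.16), and 3 of the 8 were detected in no group compared. Over this interval the mesenchyme markers rose from 55.2 to 59.5 CPM up to 7380 to 7741 in hindstomach and from 289 to 329 up to 1530 to 1673 in small intestine, and their part was not tested. Hoxd3 differed by log2 8.72 (SE 2.01, edgeR adjusted p = 0.00680) and Hoxb5 by 4.69 (SE 0.64, adjusted p = 5.03e-05). Hoxb2, Hoxb4 and Hoxb5 had a larger increase in hindstomach with either stage, while the called difference of Hoxb7 was −3.46 with the E12 label and 5.43 with E14.

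In the E10 deletion, 4 neighbours of cluster C stood far above their wild-type level. Against wild-type E16 small intestine, 11 members were higher and 2 lower in the knockout, beside 51.5% of all genes tested, with a members' median of 0.75 against −0.10. The members' share called, 37.1%, was below that of all genes, with 1 of the 12 tested posterior members called. Hoxc4 stood at 63.3, 45.5 and 29.1 CPM in the knockout and 1.09 and 1.13 in wild type (log2 5.34, SE 0.45, edgeR adjusted p = 1.17e-08). Hoxc5 stood at 64.4, 52.9 and 34.4 against 0.850 and 0.769 (log2 5.93, SE 0.92, adjusted p = 3.08e-05). Hoxc8 stood at 6.72, 8.09 and 4.20 against 0.0944 and 0 (ratio of counts 135, counting interval 36.9 to 1118; adjusted p = 7.06e-05), and Hoxc6 at 11, 11.4 and 7.07 against 0.472 and 0.256 (log2 4.70, SE 1.14, adjusted p = 0.00170). In all 4 the knockout libraries were above both wild-type libraries by a wide margin. The summed level of cluster C was 76.1 to 145 CPM in the knockout and 2.2 to 2.5 in wild type, while cluster A summed to 8.03 to 18.7 against 17.6 to 17.8.

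Cluster B changed in opposite directions within a short stretch. Hoxb2 rose to 13.2, 14.6 and 10.1 CPM from 4.81 and 4.20 (log2 1.45, SE 0.30, edgeR adjusted p = 0.000339), Hoxb3 to 1.86, 1.60 and 3.12 from 0.425 and 0.717 (log2 1.89, SE 0.55, adjusted p = 0.00585) and Hoxb4 to 2.63, 2.08 and 2.04 from 0.519 and 0.410 (log2 2.23, SE 0.53, adjusted p = 0.00117). Their neighbour Hoxb5 fell to 0.640, 1.04 and 0.360 CPM from 8.54 and 8.30 (log2 −3.62, SE 0.42, adjusted p = 3.27e-07). Hoxa4 fell as well, to 0.128, 1.12 and 0 CPM from 2.17 and 2.72 (log2 −2.51, SE 0.86, adjusted p = 0.0157). In these 5 genes no knockout library overlapped a wild-type library. Hoxb7 differed among the knockout libraries, at 5.83, 0.561 and 5.04 CPM, and its knockout and wild-type ranges overlapped. Hoxa2, Hoxa3 and Hoxa5 did not pass, with log2 differences of 0.79, −0.82 and −0.46 (SE 0.95, 0.45 and 0.45). Hoxb1 and Hoxb13 were called at under 1 CPM. The count of called members was 8 without wild-type replicate 1 and 7 in a fit on the 5 libraries alone. The mesenchyme markers summed to 199 to 307 CPM in the knockout and 1530 to 1673 in wild type, and the 4 mesothelial markers to 82.1 to 183 and 60.4 to 67.1. The part of these cells in the Hox differences was not tested.

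The same 3 knockout libraries were set beside the stomach organs of E16, so these comparisons share their samples with the one above. Against forestomach, 2 members were higher and 11 lower, beside 53.3% of all genes tested (members' median −0.88, all genes −0.07). Of the tested members 37.1% were called, below the share of all genes, and 1 of the higher and 10 of the lower were detected in either group. None of the 4 central HoxC genes was among the 13. Hoxc4 averaged 46.0 CPM in the knockout and 25.3 in forestomach (log2 0.86, SE 0.35, edgeR adjusted p = 0.0396, below the 2-fold minimum). Hoxc5 averaged 50.6 against 78.1 (log2 −0.63, SE 0.64), Hoxc6 9.82 against 12.5 (log2 −0.36, SE 0.88) and Hoxc8 6.34 against 11.6 (log2 −0.88, SE 0.72), which does not show that the levels were alike. Cluster B and A members were lower in the knockout. Hoxb6 was at 0.0640, 1.04 and 0 CPM against 20.1 and 24.7 (log2 −5.87, SE 1.08, adjusted p = 0.000112), Hoxb5 was lower by log2 −5.22 (SE 0.44, adjusted p = 3.03e-09), and Hoxa7, at 0.512, 0.561 and 0 CPM, by −5.08 (SE 0.99, adjusted p = 0.000207). The mesenchyme markers summed to 25006 to 31194 CPM in E16 forestomach and 199 to 307 in the knockout, and the blood markers to 13615 to 18333 and 4.80 to 11.5. The part of these cells in the lower levels was not tested.

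Against E16 hindstomach, 7 members were higher and 7 lower in the knockout, beside 56.3% of all genes tested (members' median 0.00, all genes −0.49). Of the tested members 40.0% were called, below the share of all genes. Only 4 of the 7 higher and 5 of the 7 lower members were detected in either group. Hoxc8, at 0 counts in hindstomach, was at least 50.8-fold higher (edgeR adjusted p = 1.60e-05), Hoxc6 was higher by log2 6.23 (SE 1.27, adjusted p = 0.000341) and Hoxc4 by 2.86 (SE 0.38, adjusted p = 3.50e-06). Hoxd3 was lower, at 0.128, 0 and 0.599 CPM against 32.8 and 24.7 (log2 −7.10, SE 1.36, adjusted p = 0.000228), as was Hoxb5 (log2 −5.37, SE 0.44, adjusted p = 1.95e-09). The mesenchyme markers were at 7380 to 7741 CPM in E16 hindstomach and 199 to 307 in the knockout, and their part in the lower levels was not tested.

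In the libraries labelled deleted at E13, 0 members were higher and 14 lower than in wild-type E16 small intestine, beside 39.5% of all genes tested. The members' median was −2.76 against −0.05. Of the tested members 40.0% were called, near the share of all genes, and 7 of the 14 were detected in either group. No member was detected in them, and the 39 members summed to 3.19 and 3.84 CPM. Hoxb5 was at 0.269 and 0.166 CPM against 8.54 and 8.30 (log2 −5.22, SE 0.53, edgeR adjusted p = 1.06e-07). Hoxa3 was at 0.154 and 0.0415 against 2.93 and 4.10 (log2 −5.07, SE 0.65, adjusted p = 2.41e-06), and Hoxb2 at 0.730 and 0.581 against 4.81 and 4.20 (log2 −2.76, SE 0.36, adjusted p = 2.75e-06). The groups did not overlap in these genes. Hoxc4, which rose in the E10 deletion, was lower here, at 0.115 and 0.0830 CPM (ratio of counts 11.1, adjusted p = 0.000184), and Hoxc5 and Hoxc8 had 0 counts. Hoxb3 and Hoxb4, raised in the E10 deletion, did not pass (log2 0.37, SE 0.58, and 0.12, SE 0.56). The mesenchyme markers summed to 59.9 to 61.6 CPM in these libraries against 1530 to 1673 in wild type, and their part in the lower Hox levels was not tested. The count was 9 without replicate 2 of the libraries labelled deleted at E13.

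The 2 deletions that were collected at E16 were also compared directly. In the E10 deletion 16 members were higher than in the libraries labelled deleted at E13 and 0 lower, beside 57.4% of all genes tested (members' median 4.21, all genes 0.00). The members' share called, 45.7%, was below that of all genes, and 6 of the 16 were detected in neither group. Hoxc5 was at least 422-fold higher (edgeR adjusted p = 1.91e-06), Hoxc8 at least 52.9-fold (adjusted p = 1.34e-05) and Hoxc4 by a ratio of counts of 495 (counting interval 212 to 1526; adjusted p = 3.00e-10). The Cre line, the tamoxifen and the time of deletion differ together here and cannot be told apart.

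The libraries labelled deleted at E15 held a small posterior signal. Against E18 wild-type small intestine 6 members were higher and 0 lower, beside 17.5% of all genes tested (members' median 0.00, all genes 0.00), so the members' share of 17.1% was near that of all genes. Hoxa9 was at 4.88 and 4.25 CPM against 0.305 and 0.256 (log2 4.02, SE 1.11, edgeR adjusted p = 0.0119), and Hoxa10 at 2.77 and 2.69 against 0.0761 and 0.256 (log2 3.90, SE 0.78, adjusted p = 0.00163). Hoxa9 kept its call in 2 of the 4 fits that left out a library and Hoxa10 in all 4. Hoxb2 was at 1.77 and 1.66 CPM against 0.381 and 0.512 (log2 1.91, SE 0.40, adjusted p = 0.00101), Hoxb3 at 2.06 and 1.81 against 0.228 and 0.461 (log2 2.44, SE 0.61, adjusted p = 0.00439), and Hoxb4 at 1.53 and 1.95 against 0.305 and 0.358 (log2 2.37, SE 0.58, adjusted p = 0.00361). In these 5 genes the groups did not overlap. The sixth, Hoxb9, was called at under 1 CPM. Cluster C had 0 counts in all 4 libraries. The mesenchyme markers were at 4.35 to 4.50 CPM in these libraries and 4.25 to 5.79 in wild type, whereas 4 immune cell markers summed to 9.57 to 10.2 CPM against 327 to 334 and 4 mesothelial markers to 0.191 to 0.567 against 3.33 to 3.65. The part of these cells in the Hox differences was not tested. Hoxb2, Hoxb3 and Hoxb4 were higher than wild type at both the E10 and the E15 deletion, each with its own wild-type group. The count of called members was 3 without E18 wild-type replicate 1.

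**Figure D4:**
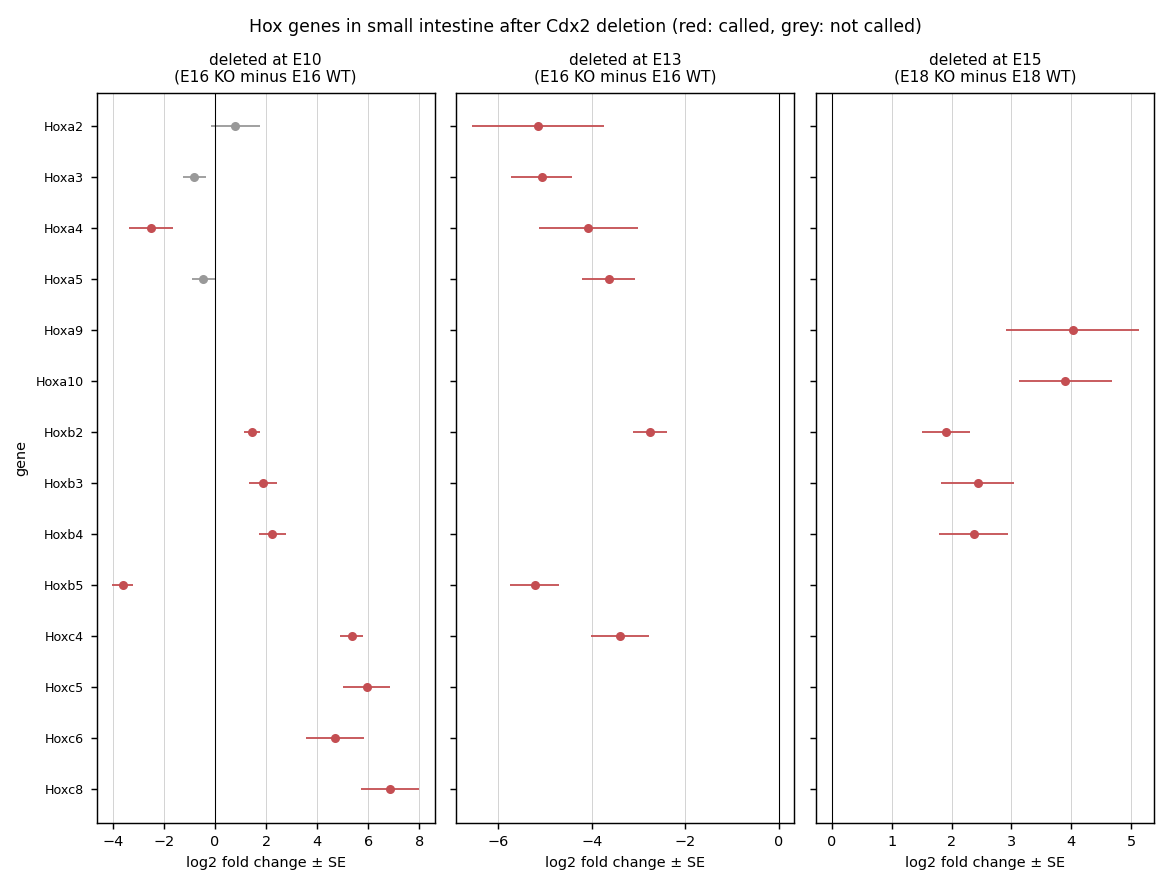
Fitted log2 difference (knockout minus wild type, with its SE) of 14 Hox members in the 3 embryonic Cdx2 knockout comparisons, each with its own axis; the members drawn were detected in either group compared, called in red and not called in grey. The central HoxC members lie far above 0 for the E10 deletion, and Hoxa9 and Hoxa10 lie above 0 for the E15 label. Every member drawn for the E13 label lies below 0, but each was detected in wild type only, so this choice favours that side. Hoxb3 and Hoxb4, fitted above 0 for the E13 label, were detected in neither group and are not drawn there.

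In adult ileal villi a run of cluster B was expressed. Adult wild type had 4 members detected and the libraries labelled adult knockout 6, and Hoxb9 was the highest of them in every adult library. Of the 7 members tested, 3 were higher and 1 lower in the knockout-labelled libraries, beside 20.4% of all genes tested (members' median 1.00, all genes 0.01). Hoxb9 was at 39.9 and 26.1 CPM against 3.23 and 8.24 (log2 2.38, SE 0.49, edgeR adjusted p = 0.0233). Hoxb7 was at 7.61 and 4.94 against 0.874 and 1.57 (log2 2.21, SE 0.44, adjusted p = 0.0222), and Hoxb8 at 7.93 and 4.62 against 0.961 and 1.80 (log2 2.04, SE 0.48, adjusted p = 0.0321). The groups did not overlap in any of these 3 neighbours. Hoxb6, at 6.91 and 5.27 against 1.92 and 3.61 CPM, did not pass (log2 1.00, SE 0.41, adjusted p = 0.121), nor did Hoxb5 and Hoxb3. Hoxa3 was lower, at 0 and 0.107 CPM against 1.22 and 2.51 (ratio of counts 47.4, counting interval 8.10 to 1914; adjusted p = 0.0207). These calls rested on all 4 libraries: 0 members passed without replicate 1 of the knockout-labelled libraries (3 at an unadjusted p under 0.05 by edgeR) and 0 without replicate 2 (5 at an unadjusted p under 0.05), while 2 passed without either wild-type library and DESeq2 called 4 on all of them. Enteric nervous system markers summed to 347 to 497 CPM in the knockout-labelled libraries and 7.53 to 15.6 in wild type, and their part in these differences was not tested.

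**Figure D5:**
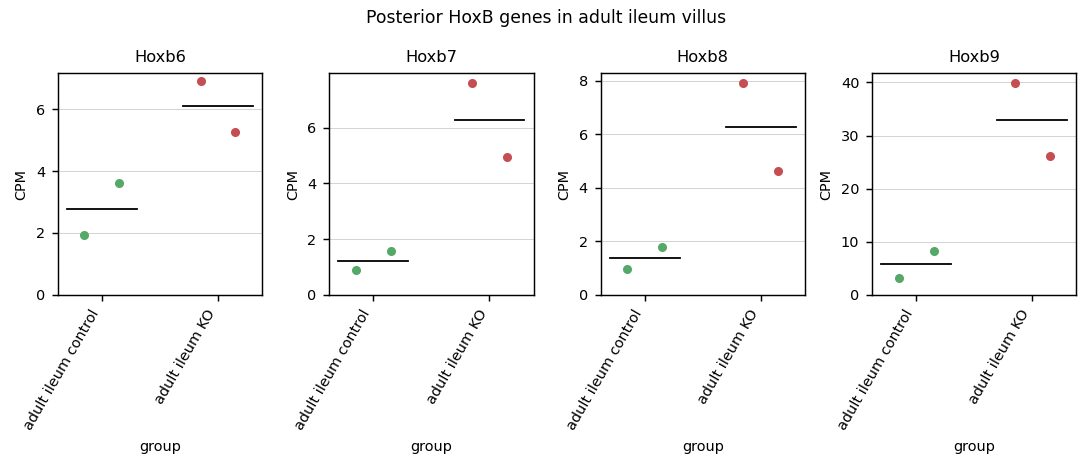
CPM of Hoxb6, Hoxb7, Hoxb8 and Hoxb9 in the 4 adult ileum libraries (points; bars are group means). Each of the 4 genes is higher in both libraries labelled Cdx2 knockout than in both wild-type libraries.

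Promoter sequences were searched because Cdx proteins are known to bind TTTATNG, where N is any base. RefSeq's table (build GRCm38.p6) gave a promoter of 300 bases, 250 before and 50 after the start, for 22 of the 39 members. The letters TTTATNG on either strand occurred in 2 of these members (9.09%), Hoxb8 and Hoxd4, and in 1860 of the 16775 genes of the count table with a promoter (11.1%). Of the 13 members called between the E10 deletion and wild-type small intestine, 3 had a promoter in the table and 0 of these held the letters. The matches of Hoxb8, chosen for display after its adult values were seen, lie on chromosome 11 on the + strand. They are printed 5′ to 3′ with the matching letters in capitals.
Hoxb8, chr11:96281700-96281729 (bases −205 to −176 from the start): tgcagtTTTATAGctgtagaggaaagaact
Hoxb8, chr11:96281779-96281808 (bases −126 to −97 from the start): tccggcTTTATTGcgtTTTATAGtttgtta
These letters describe the sequence and do not show that a factor binds there. Of the other adult cluster B members, the table was searched in the same way and gave no further match in a member with a promoter.

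Genes that work with or beside the Hox clusters were counted from lists. Of 9 genes for the cofactors Pbx, Meis and Pknox (Prep), 6 fell and 0 rose in small intestine from E12 to E16, beside 40.0% of all genes called. Meis1 went from a mean of 87.7 CPM to 14.5 (log2 −2.59, SE 0.23, edgeR adjusted p = 3.42e-08). At E16, 6 of the 9 were higher in forestomach than in small intestine and 4 in hindstomach (35.0% and 25.7% of all genes), among them Meis1, with means of 100 and 71.8 CPM. The mesenchyme markers (25006 to 31194 CPM in forestomach, 7380 to 7741 in hindstomach and 1530 to 1673 in small intestine) and, in hindstomach, the enteric nervous system markers (661 to 662 against 51.7 to 61.8) were higher in the same comparisons, and their part in the cofactor and retinoic acid gene counts was not tested. In the E10 deletion 3 were higher (Pbx4 and Meis2 among them) and 2 lower (Pknox1 and Pknox2) than in wild type, beside 51.5% of all genes, and Meis1 reached 0 CPM in E18 small intestine. Of the ParaHox genes, relatives of the Hox family that act in gut endoderm, Pdx1 rose to a mean of 29.5 CPM from 4.80 in the E10 deletion (log2 2.59, SE 0.43, adjusted p = 3.38e-05), and Cdx1 fell to 4.90 from 293 (log2 −6.06, SE 0.56, adjusted p = 2.37e-08).

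Chromatin regulators and flanking genes were counted in the same way, beside 51.5% of all genes called for the E10 deletion, 39.5% for the E13 label, 17.5% for the E15 label and 35.0% between E16 forestomach and small intestine. Of 17 tested Polycomb genes, whose products keep silent Hox genes silent, 1 was higher and 5 lower in the E10 deletion than in wild-type small intestine, 5 higher and 5 lower in the libraries labelled deleted at E13, and 1 higher and 0 lower in those labelled deleted at E15. Of 10 tested Trithorax-group genes, whose products oppose Polycomb, the counts were 0 and 4, then 6 and 0, then 0 and 0. Of 12 tested genes of retinoic acid synthesis, breakdown and response, known inputs to the 3′ Hox genes, 6 were higher and 1 lower in E16 forestomach than in E16 small intestine, and 3 higher and 2 lower in the E10 deletion than in wild type. Of 8 tested genes that flank the clusters, 2 were higher and 1 lower in the E10 deletion, and 0 differed between E16 forestomach and small intestine.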

How the data were processed

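RNA-seq was measured in 31 libraries of 15 groups, with SMARTer v4 libraries for embryos and TruSeq V2 libraries for adults. The authors deposited whole-number read counts per gene symbol. The submitters' processing notes name STAR 2.5.3a, HTSeq and build mm9, with no role or order given. The strand setting is not given in the sources used here. The 4 adult columns held 2 blank cells each inside the table, which were closed up, and no Hox member stands at or below the first blank cell. A further 2 columns belong to no sample used here and were left out.

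From the counts, edgeR 4.0.16 in R 4.3.3 (TMM, filterByExpr with a minimum count of 10, quasi-likelihood test, Benjamini-Hochberg adjustment over all tested genes) fitted the 27 embryonic libraries together and the 4 adult libraries apart. The embryonic fit pools the spread of 13 groups of 2 to 3 libraries. CPM were scaled over all 31 libraries. A fold against a group at 0 uses a floor of 3 counts per library, and a group with at most 3 counts per library gets the ratio of counts with an exact 95% interval, which covers counting error only. The SE is the log2 difference over the root of F. Members, gene lists and marker lists were chosen with earlier results of these data known. Members given in full were drawn mainly from the 3 called members with the largest change in each direction and an average log2 CPM of at least 0. Members called in both stomach organs against small intestine at E16 and in a knockout were added. Some members that meet these rules are not given in full, among them members detected in no group compared. Others are given as examples chosen after their values were seen. The values of 1 member and of some other genes are not reported here; counts, sums and medians include them. Alternatives were RLE scaling, no filter, a replicate block, DESeq2 1.42.0, other sets of libraries in the fit, and leaving out each library. On simulated counts the embryonic fit recovered 164 of 200 changed genes for the E10 deletion against wild type, with 5 false calls among 16159 genes. By size of change it recovered 26 of 62 at 2-fold, 70 of 70 at 4-fold and 68 of 68 at 8-fold. The adult fit recovered 147 of 200 with 4 false calls among 12365 genes (10 of 60, 71 of 74 and 66 of 66). Every simulated gene had the same fixed spread, groups were otherwise equal, and only genes averaging at least 1 CPM were changed. These settings differ from the data, so the simulation does not give the power or false calls for the Hox members.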

Additional observations from a re-analysis of the deposited data

Results flagged for a closer look

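These results are listed because an effect differed between organs, or between deletion times, by a test of the difference itself (edgeR's quasi-likelihood test, adjusted over all genes). Members that passed without being detected in any group compared, 6 in all, are left out. All values are log2 differences.

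The change from E12 to E16 was larger in forestomach than in small intestine for 9 members (25.7% of those tested, below the 30.8% of all genes). The differences were 1.83 for Hoxa5, 6.08 for Hoxa7, 3.09 for Hoxb2, 4.11 for Hoxb3, 3.37 for Hoxb4, 4.14 for Hoxb5, 7.50 for Hoxb6, 6.53 for Hoxb7 and 10.23 for Hoxc8. The mesenchyme markers rose over the same interval by more in forestomach, from 75.0 to 89.6 CPM in sum up to 25006 to 31194, than in small intestine, from 130 to 143 up to 1530 to 1673. Their part in these differences was not tested.

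Between hindstomach and small intestine, with the libraries labelled E12 hindstomach as the earlier stage, 28.6% of the tested members and 20.3% of all genes passed. The difference was positive for Hoxb2 (2.31), Hoxb4 (3.25), Hoxb5 (2.18) and Hoxc4 (3.88). It was negative for Hoxa7 (−5.43), Hoxa9 (−14.42), Hoxa10 (−18.03), Hoxb7 (−3.46), Hoxb9 (−12.21) and Hoxd8 (−7.99). Hoxa9, Hoxa10 and Hoxb9 had 0 counts in E16 hindstomach, so their fitted values depend on the prior count and are no bound. With E14 as the earlier stage it was 4.01 for Hoxb2, 4.33 for Hoxb4 and 4.69 for Hoxb5. It was also called for Hoxb7, at 5.43, opposite in sign to the value above, although Hoxb7 was detected in no group of that comparison. The mesenchyme markers rose from E14 to E16 from 55.2 to 59.5 CPM up to 7380 to 7741 in hindstomach and from 289 to 329 up to 1530 to 1673 in small intestine, and their part was not tested. The negative value of Hoxb7 was called in 3 of the 8 fits that left out a library.

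Between the E10 deletion and the libraries labelled deleted at E13, both from E16 small intestine, the values of 9 detected members that differed are given. The share of tested members called, 45.7%, was below the 57.4% of all genes. The values were 5.95 for Hoxa2, 3.18 for Hoxa5, 4.21 for Hoxb2, 1.51 for Hoxb3, 2.11 for Hoxb4, 8.74 for Hoxc4, 13.32 for Hoxc5, 7.74 for Hoxc6 and 10.32 for Hoxc8. Hoxc5 and Hoxc8 had 0 counts in the libraries labelled deleted at E13, so their fitted values depend on the prior count. Mesenchyme markers summed to 199 to 307 CPM for the E10 deletion, against 59.9 to 61.6 for the E13 label, and their part was not tested.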

How the results depend on the processing

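No called difference of a member reversed under RLE scaling, without the filter, with the replicate block, with DESeq2, in a fit on the groups compared or when 1 library was left out. With E14 in place of the libraries labelled E12, 3 members called lower in E16 hindstomach were called higher: Hoxb7 (log2 −4.05 and 5.84), Hoxd8 (−3.07 and 8.11) and Hoxd9 (−3.78 and 6.85). The interaction of Hoxb7 went from −3.46 to 5.43. Hoxd8 and Hoxd9 had 0 counts at E14, so their fitted values depend on the prior count. Of 257 called differences, 252 stayed called under RLE scaling, 248 without the filter, 244 with a replicate block and 218 with DESeq2. Of 226 embryonic calls that could be refitted on the compared groups alone, 190 stayed, of 180 calls not using the libraries labelled E12 hindstomach 176 stayed without them (chosen after seeing the data), and of 1160 refits that left out 1 library 904 kept the call. Libraries with the same replicate number showed little shared deviation: correlations ran from −0.0804 to 0.0986 over 21 comparisons. The labels do not say whether such libraries are paired, and this check cannot exclude it. With the replicate block, 11 members were called between the E10 deletion and small intestine instead of 13, and 3 in the adult instead of 4.

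With only the groups compared in the fit, 0 members were called for forestomach against small intestine at E12, 7 for hindstomach against small intestine at E12, 14 for forestomach against hindstomach at E16, 2 for small intestine E16 against E12, 7 for the E10 deletion against small intestine, and 4 for the interaction of hindstomach and small intestine; these fits have few residual degrees of freedom. DESeq2 called 11 for hindstomach against small intestine at E12. With E14 in place of E12, hindstomach E16 against the earlier stage gave 13. Leaving out 1 library, with the lone library of a group assumed to vary like the other groups, gave 11 to 18 called members for forestomach against hindstomach, 3 to 10 for forestomach against small intestine at E12, 5 to 8 (forestomach against hindstomach), 4 to 6 (forestomach against small intestine) and 3 to 5 (hindstomach against small intestine) at E14, and 5 to 8 (forestomach against hindstomach) and 6 to 7 (hindstomach against small intestine) at E16. It gave 7 to 11 for small intestine E18 against E16, 8 to 15 for the E10 deletion, 9 to 14 for the libraries labelled deleted at E13 and 3 to 5 for those labelled deleted at E15, each against wild type, and 0 to 2 in the adult. The cause of these shifts was not tested. Depth limits the E16 forestomach most, at 5970227 and 6335340 counts, where 3 counts come to more CPM than in any other library.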
